A study of Mus musculus with 6 samples.

Results

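The genes described here encode the oxidative phosphorylation machinery: the 107 rows of a 15601-gene count table whose symbol begins with Nduf, Sdh, Uqcr, Cox4 to Cox8, Atp5 or mt-. Of these, 94 are nuclear-encoded and 13 lie on the mitochondrial chromosome. By the complex that holds the product, the nuclear-encoded genes comprise 36 of complex I, 4 of complex II, 8 of complex III, 18 of complex IV and 15 of complex V, with 13 further genes whose products assist assembly. The mt- genes comprise 7 of complex I, 1 of complex III, 3 of complex IV and 2 of complex V. The levels come from live CD3+ CD8+ CD4- lymphocytes sorted on day 10 from subcutaneous tumours of MB49, a mouse urothelial cancer line. The hosts were wild-type C57BL/6 females and males, 6 weeks old when injected (6 to 8 weeks in the age label), and every mouse carried the same tumour line with no other treatment. The table holds 26698 cells in 6 libraries, 3 from females (libraries 2, 5 and 6) and 3 from males (libraries 1, 3 and 4), and in the 11 clusters that the authors deposited.

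The respiratory chain passes electrons from NADH through complex I, or from succinate through complex II, to coenzyme Q, then through complex III and cytochrome c to complex IV, where oxygen is reduced. Complexes I, III and IV pump protons, and complex V, the ATP synthase, uses the gradient to make ATP. All complexes except complex II combine subunits translated inside the mitochondrion from mt- messenger RNAs with subunits translated in the cytosol from nuclear genes and imported, and T cells raise their mitochondrial mass when they are activated. The mt- RNAs are read from long polycistronic transcripts of a circular genome and stay inside the organelle, whereas the nuclear-encoded messengers are cytosolic.

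The promoters of 4 nuclear-encoded genes that share a motif are shown. Each gene was the most abundant of its complex to have that motif wholly before the start. The 4 genes take different courses in 1 of the clusters described further on, which played no part in their choice. The table of RefSeq promoters (build GRCm38.p6, 250 bases before to 50 after the start) held 79 of the 94 nuclear-encoded genes. The motif of NRF1, a transcription factor long tied to respiratory genes, was searched on both strands as GCGCA, any base, then GCGC, and it lay in 21 of the 79 (26.6%), against 5.19% of the 27025 genes with a promoter and 7.17% of the 17492 protein-coding ones. The YY1 motif AAGATGGCG lay in 8 (10.1%, against 1.64% of all) and the ETS motif CCGGAAGT in 5 (6.33%, against 4.31%), also on both strands. Each line gives bases upstream of the RefSeq start, on the gene's own minus strand, with the NRF1 motif in capitals. For Ndufs6 and Atp5g2 these bases lie inside the gene as GENCODE annotates it.
Ndufs6, chr13:73328483-73328518: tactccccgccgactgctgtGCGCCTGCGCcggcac
Sdhd, chr9:50603899-50603948: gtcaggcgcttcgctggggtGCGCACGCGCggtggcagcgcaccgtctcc
Cox6a1, chr5:115349046-115349095: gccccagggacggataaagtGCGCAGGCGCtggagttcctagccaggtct
Atp5g2, chr15:102671060-102671109: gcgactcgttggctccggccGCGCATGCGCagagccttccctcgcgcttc
Ndufs6 carries a zinc-binding subunit of complex I, Sdhd a membrane anchor of complex II, Cox6a1 a subunit of complex IV, and Atp5g2 the ring-forming c subunit of the ATP synthase. The 19 expressed genes with the NRF1 motif and the 52 expressed genes without it had near medians in each contrast below: -1.29 and -1.13 for cluster 6, -0.85 and -0.65 for cluster 10, and 0.80 and 0.70 for cluster 5 over cluster 2, as log2 ratios. A match is a run of letters in this window and says nothing of binding.

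On the mitochondrial chromosome (GENCODE annotation, build GRCm38) 12 of the 13 genes lie on the plus strand and mt-Nd6 on the minus strand. Some reading frames overlap, so that a read from the shared stretch fits both genes. Each overlap shown here joins a pair of genes carried on the same messenger RNA, and the capitals mark the bases that both frames use.
mt-Atp8 and mt-Atp6, chrM:7915-7981: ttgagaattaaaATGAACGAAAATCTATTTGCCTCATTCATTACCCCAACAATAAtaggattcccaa
mt-Nd4l and mt-Nd4, chrM:10155-10185: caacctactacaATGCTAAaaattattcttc
The mt-Atp8 and mt-Atp6 frames share 43 bases, and mt-Nd4l and mt-Nd4 share 7. The unequal totals of 25806 unique molecular identifiers (UMIs, counted molecules) for mt-Atp8 and 3523640 for mt-Atp6 therefore divide reads of the same messenger in a 3' end assay and are no ratio of proteins. Cluster ratios and sex comparisons below set the level of each gene against itself. Where a gene is given as a share of a set, the share is one of UMIs only.

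The 6 libraries held 25562319 to 66105318 UMIs, with a median of 6397.5 to 10114.5 per cell. In all, 84 cell barcodes occurred in more than 1 library (169 cells). Levels are given as CPM, UMIs per 1000000 UMIs; in the comparisons of clusters, the CPM of a nuclear gene is taken over the UMIs outside mt- genes. Cd4 was at most 1.37 CPM in any cluster, while Cd3d ranged from 961 to 3716 and Cd8b1 from 125 in cluster 2 to 2212 in cluster 6. By its leading genes, cluster 9 is interferon-stimulated-like, cluster 7 resembles naive or central memory cells, clusters 3 and 5 are proliferating-like and cluster 2 is natural killer-like. The others are called by number: 0 is led by Cnih2 and Tg, 1 by Gzmm and Itgae, 4 by Il2 and Ccl4, 6 by Gzmg and Spp1, 8 by Serpinb9b and Gzmc, and 10 by Gm26870 and Gm42418. Male library 1 stood apart in the mt- genes: it had the highest mt- share in 9 of the 11 clusters. Sex comparisons of respiratory genes below are therefore given without it where that changes a call. The labels name 3 biological replicates of each sex, which the libraries could not be matched to by number, and do not say whether a replicate was 1 mouse.

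The mt- genes took 14623915 of 295211042 UMIs (4.95%) and the nuclear-encoded genes 5933609 (2.01%). Clusters 6 and 10 stood apart in both. In cluster 6 the mt- share of all UMIs was 28.0% in the lowest library, 30.3% in the median and 34.3% in the highest. In cluster 10 it was 17.9%, 24.3% and 32.2% in the same order. In the remaining 9 clusters the library values lay between 3.51% and 5.76%, so that no library of cluster 6 or 10 overlapped them. The 9 cluster means ran from 4.01% ± 0.452 (SD, n = 6) in cluster 8 to 4.98% ± 0.461 in cluster 2, and neighbours in that order overlapped in their library ranges. Clusters 6 and 10 overlapped as well, although 6 was higher in 5 of 6 libraries.

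**Figure D1:**
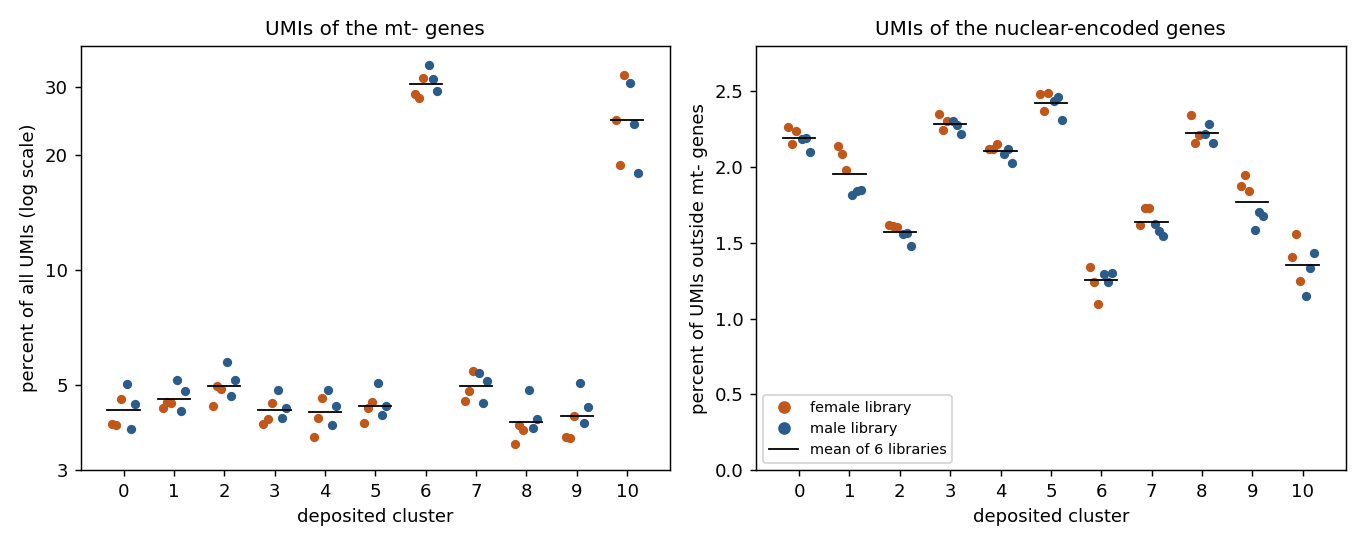
Percent of all UMIs from the 13 mt- genes (left, log axis) and percent of UMIs outside mt- genes from the 94 nuclear-encoded genes (right) in each deposited cluster, with 1 point per library, females and males coloured apart, and a bar at the mean of 6 libraries. Clusters 6 and 10 sit at 17.9% and above on the left and lowest on the right, and in clusters 1 and 9 the male points of the right panel lie below the female ones.

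The shift ran through most cells of cluster 6. In cluster 6, 95.7% of cells (mean of 6 libraries) had over 10% mt- UMIs, and the mean lower and upper quartiles of its cells were 23.6% and 37.0%. Cluster 10 was more mixed: 75.7% of its cells passed 10%, with a range over libraries of 59.3% to 85.9%, and its mean quartiles were 11.6% and 31.1%. In each of the other clusters the mean was between 2.48% and 3.33% of cells. Of the 3460 cells over 10% in the whole table, 2785 were in clusters 6 and 10, which hold 3171 cells (11.9%) and 12.7% of all mt- UMIs.

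Counted per cell, cluster 6 had mt- UMIs within the range of the 9 other clusters, though only the proliferating-like clusters 3 and 5 had more. It had a median over libraries of 706 mt- UMIs per cell, between the 647 of cluster 8 and the 973 of cluster 5, and below the 1255 of cluster 3. Its nuclear-encoded respiratory UMIs, by contrast, came to 18.7 per cell, against 104 to 617 in the 9 other clusters, and its UMIs outside both gene groups to 1524, against 6484 to 26474. Cluster 10 had 448 mt- UMIs, 19.1 nuclear-encoded respiratory UMIs and 1377 others per cell. High mt- shares therefore went with few UMIs of everything else in both clusters.

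Relative to the other nuclear RNA of the same cells, nuclear-encoded respiratory genes were also lowest in clusters 6 and 10. They took 1.25% ± 0.0854 (SD, n = 6) of UMIs outside mt- genes in cluster 6 and 1.35% ± 0.144 in cluster 10. The next lowest were cluster 2 at 1.57% ± 0.0527 and cluster 7 at 1.64% ± 0.0776, then 9 at 1.77% ± 0.139 and 1 at 1.95% ± 0.137. The order went on through cluster 4 at 2.10% ± 0.0440, 0 at 2.19% ± 0.0590, 8 at 2.23% ± 0.0732 and 3 at 2.29% ± 0.0472 to cluster 5 at 2.42% ± 0.0717. Each neighbour in this order overlapped the next in its library range, although cluster 2 was above 10, and 5 above 3, in all 6 libraries. As mt- UMIs per nuclear-encoded UMI, the median library had 34.3 in cluster 6 and 23.4 in cluster 10, and 1.85 to 3.22 elsewhere.

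The lower level in cluster 6 was not shared evenly among the complexes. For each library, the level of every expressed gene (20 CPM or more) in cluster 6 or 10 was divided by its level in the 9 other clusters pooled. UMIs were summed in that pool, so clusters with many UMIs weigh most in it. Since the clusters were built from the same counts, these ratios are a description without a test. In cluster 6, 67 of 82 nuclear-encoded genes were lower, 61 of them in all 6 libraries, with a median log2 ratio of -1.15, while 48.3% of all 5468 expressed genes were lower, with a median of 0.05. All 15 genes of complex V (median -1.40) and all 8 of complex III (-1.34) were lower, as were 10 of 12 of complex IV (-1.33) and 28 of 36 of complex I (-0.87). Complex II was divided, with a median of 0.18.

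Cox7b, a small subunit of complex IV, was the lowest. It had 55.2, 94.0 and 107 CPM in the lowest, median and highest library of cluster 6, against 307, 322 and 363 in the other clusters. The groups did not overlap, and the log2 ratio was -1.90 ± 0.37 (SD, n = 6). Cox6b1, also of complex IV, followed at -1.76, then Ndufs6 at -1.75 and Atp5g1, another gene for the c subunit, at -1.74. Of the promoters printed above, those of Ndufs6 and Atp5g2 (-1.48) thus belong to genes that were low in cluster 6, and those of Sdhd (0.43) and Cox6a1 (0.05) to genes that were not.

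At the other end stood genes of complex I. Ndufa13, also known as GRIM-19, is a subunit of the membrane arm of complex I. It had 1071, 1125 and 1635 CPM in the lowest, median and highest library of cluster 6, against 359, 401 and 424 in the other clusters. Every library of cluster 6 was above every library of the rest, with a log2 ratio of 1.63 ± 0.17 (SD, n = 6), or 3.09-fold. Ndufc2, another membrane-arm subunit, had 408, 465 and 538 against 169, 179 and 192, a log2 ratio of 1.38 ± 0.11. Ndufa4, named for complex I and since assigned to complex IV, stood at 506, 646 and 851 against 316, 361 and 392, a log2 ratio of 0.90 ± 0.16. These ratios rest on 3699, 1448 and 2121 UMIs of Ndufa13, Ndufc2 and Ndufa4 in cluster 6. Ndufs7 (0.77), Ndufa9 (0.66), Atp5sl (0.65), Ndufa11 (0.58) and Ndufs8 (0.55) were also higher.

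Within complex II, which oxidises succinate and has no mitochondrially encoded subunit, the membrane anchors Sdhc (0.46) and Sdhd (0.43) were higher in cluster 6 in all 6 libraries. The iron-sulphur subunit Sdhb was lower in all 6 (-1.15). The flavoprotein subunit Sdha was near its level elsewhere, with a median of 83.1 CPM against 85.6. The 4 genes of the complex thus took 3 different courses in the same cells. Taken over all UMIs, mt- included, the median log2 ratio in cluster 6 is -1.61. On that scale Ndufa13 (1.16), Ndufc2 (0.92) and Ndufa4 (0.44) remain above 0 and Sdhd stands at -0.04.

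In cluster 10 the median difference was smaller. There 76 of 82 genes were lower, 56 in all 6 libraries, with a median of -0.66, while 41.6% of all expressed genes were lower, with a median of 0.20. All genes of complexes II to V were lower, with medians of -0.44 for II, -0.64 for III, -0.85 for V and the lowest for IV, and 32 of 36 of complex I were (-0.64). Lower means below the pool, not below every cluster. Atp5d (526 CPM) and Cox4i1 (735) had higher means in cluster 10 than in cluster 2 (401 and 595) or 7 (379 and 574). Cox5a was below both, with 217 in cluster 10 against 285 in cluster 2 and 323 in cluster 7. The lowest were Ndufa8 (-1.51), Cox5a (-1.43), Ndufa12 (-1.37) and Ndufs5 (-1.32), of complexes I, IV, I and I. Of the genes that were high in cluster 6, Ndufa13 was at 0.10 here, while Ndufc2 (-0.61) and Ndufa4 (-0.95) were lower in all 6 libraries. The highest were Atp5sl (1.16), which despite its symbol encodes a factor linked to complex I assembly, and Ndufs1 (0.68), the large iron-sulphur subunit of complex I, then Ndufa10 (0.15) and Ndufv3 (0.12). Atp5sl rests on 61 UMIs and Ndufs1 on 92 in cluster 10.

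**Figure D2:**
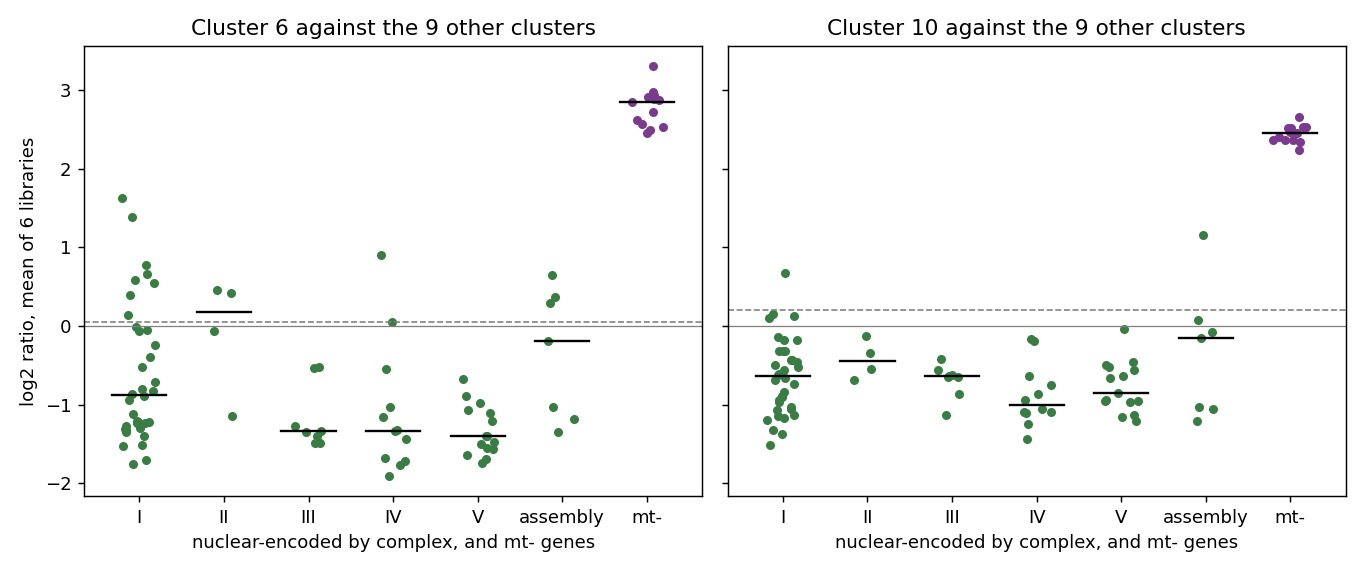
Log2 ratio of each gene in cluster 6 (left) and cluster 10 (right) over the 9 other clusters, mean of 6 libraries, with 1 point per expressed gene, complexes in columns, a bar at each median and a dashed line at the median of all expressed genes. Nuclear-encoded genes are relative to UMIs outside mt- genes and mt- genes to all UMIs; the nuclear-encoded genes of complexes III and V lie wholly below 0 in both panels, while Ndufa13 of complex I reaches 1.63 in cluster 6.

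All 13 mt- genes were higher in both clusters, by 2.46 (mt-Nd1) to 3.30 (mt-Nd6) in cluster 6 and by 2.24 to 2.66 in cluster 10, as log2 ratios of CPM over all UMIs. The make-up of the mt- RNA also differed. mt-Co1, the catalytic subunit of complex IV, made up 18.1% ± 0.916 (SD, n = 6) of mt- UMIs in the 9 other clusters and 15.1% ± 1.15 in cluster 6, lower in 6 of 6 libraries. The 7 mt- genes of complex I, all core membrane subunits, went both ways. mt-Nd1 stood at 0.788 times, mt-Nd5 at 0.807 times and mt-Nd4 at 0.855 times their share elsewhere, lower in 6 of 6 libraries. mt-Nd2 (1.06 times), mt-Nd4l (1.13) and mt-Nd6 (1.42) were higher in 6 of 6, and mt-Nd3 (1.04) in 5 of 6. mt-Cytb of complex III (0.946) and mt-Atp8 of complex V (0.886) were lower in 6 of 6, while mt-Co2 (1.06), mt-Co3 (1.10) and mt-Atp6 (1.08) were higher in 6 of 6. In cluster 10, mt-Nd1 (0.856) and mt-Co1 (0.921) were again lower in 6 of 6, and mt-Atp6 (1.04) and mt-Co2 (1.04) higher. These genes have no test here, since the clusters were built from the same cells' counts.

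RNA kept in the nucleus was higher along with the mt- genes. Malat1, an abundant nuclear non-coding RNA, had a log2 ratio of 1.28 in cluster 6 and 2.02 in cluster 10, Neat1 of 1.74 and 1.98, and Kcnq1ot1 of 1.95 and 1.17. The 5 CD3 and CD8 genes in the table summed to 14023 CPM in cluster 6, against 2253 to 5705 in the others, and the 16 markers of terminal exhaustion to 32113 against at most 13223. Markers of other cells were higher there too but low: 71.8 CPM for 10 myeloid genes, 116 for 4 MHC class II genes and 6.58 for 4 red blood cell genes, against at most 43.5, 66.3 and 1.88 elsewhere. In cluster 10, 6 tumour epithelial genes summed to 31.1 CPM. The part of any of these in the mt- and nuclear-encoded values was not tested.

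Among the 9 other clusters most nuclear-encoded genes were highest in the same few. Of 82 expressed genes, 74 were highest in cluster 3, 4, 5 or 8, with 42 in cluster 5, and 60 were lowest in cluster 2 (43) or 7 (17). From cluster 2 to the proliferating-like cluster 5, 78 of 82 were higher, 76 of them in all 6 libraries, with a median log2 ratio of 0.72, while 64.4% of all expressed genes were higher, with a median of 0.26. Cox5a, a matrix-side subunit of complex IV, had 258, 284 and 316 CPM in the lowest, median and highest library of cluster 2, and 718, 748 and 778 in cluster 5. Sdhb, the iron-sulphur subunit of complex II, had 62.8, 72.5 and 81.6 in cluster 2 and 168, 176 and 185 in cluster 5. Neither gene overlapped between the 2 clusters. Least variable was Ndufa7 of complex I, whose cluster means spanned 1.22-fold, from 186 to 226.

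The 4 genes that were lower in cluster 5 than in cluster 2 were Cox7a2l, Uqcrh, Ndufa6 and Atp5sl. Cox7a2l, which encodes a factor linked to supercomplexes of complexes III and IV, had 559, 657 and 711 CPM in cluster 2 but 359, 419 and 468 in cluster 5. Neither its protein nor supercomplexes were measured here. Whether the protein of these C57BL/6 mice has that function was not tested. Together with its relative Cox7a2, a subunit of complex IV, Cox7a2l makes up nearly all of the Cox7a set, and the balance differed: Cox7a2l made up 66.3% to 67.7% of the UMIs of the Cox7a set in clusters 1, 2 and 7 and 44.3% ± 3.86 and 45.4% ± 4.18 (SD, n = 6) in clusters 3 and 5. Uqcrh, the hinge subunit of complex III, had a mean of 1030 in cluster 0 and 878 in cluster 2 against 642 in cluster 3. Shares within a set are shares of UMIs, not of transcripts per length.

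Cluster 4, led by Il2 and chemokine genes, had its own pattern. Ndufaf4, a complex I assembly factor, had 72.7, 77.2 and 93.4 CPM there in the lowest, median and highest library. In the next highest cluster, 7, it had 28.5, 42.3 and 54.1. The ranges did not overlap, and the 4.41-fold span over the 9 clusters was the widest of the expressed genes. Atp5g1 came next at 2.95-fold, with a mean of 472 ± 33.1 in cluster 4 against 160 to 333 in the other 8 clusters outside 6 and 10. It is 1 of 3 genes for the same mature c subunit, and it made up 34.6% ± 1.63 of that set's UMIs in cluster 4 against 17.1% to 23.8% in the other 8, with Atp5g2 down to 39.2% from 49.1% or more. How reads shared with near-identical copies of these genes were counted is not given in the sources used here.

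**Figure D3:**
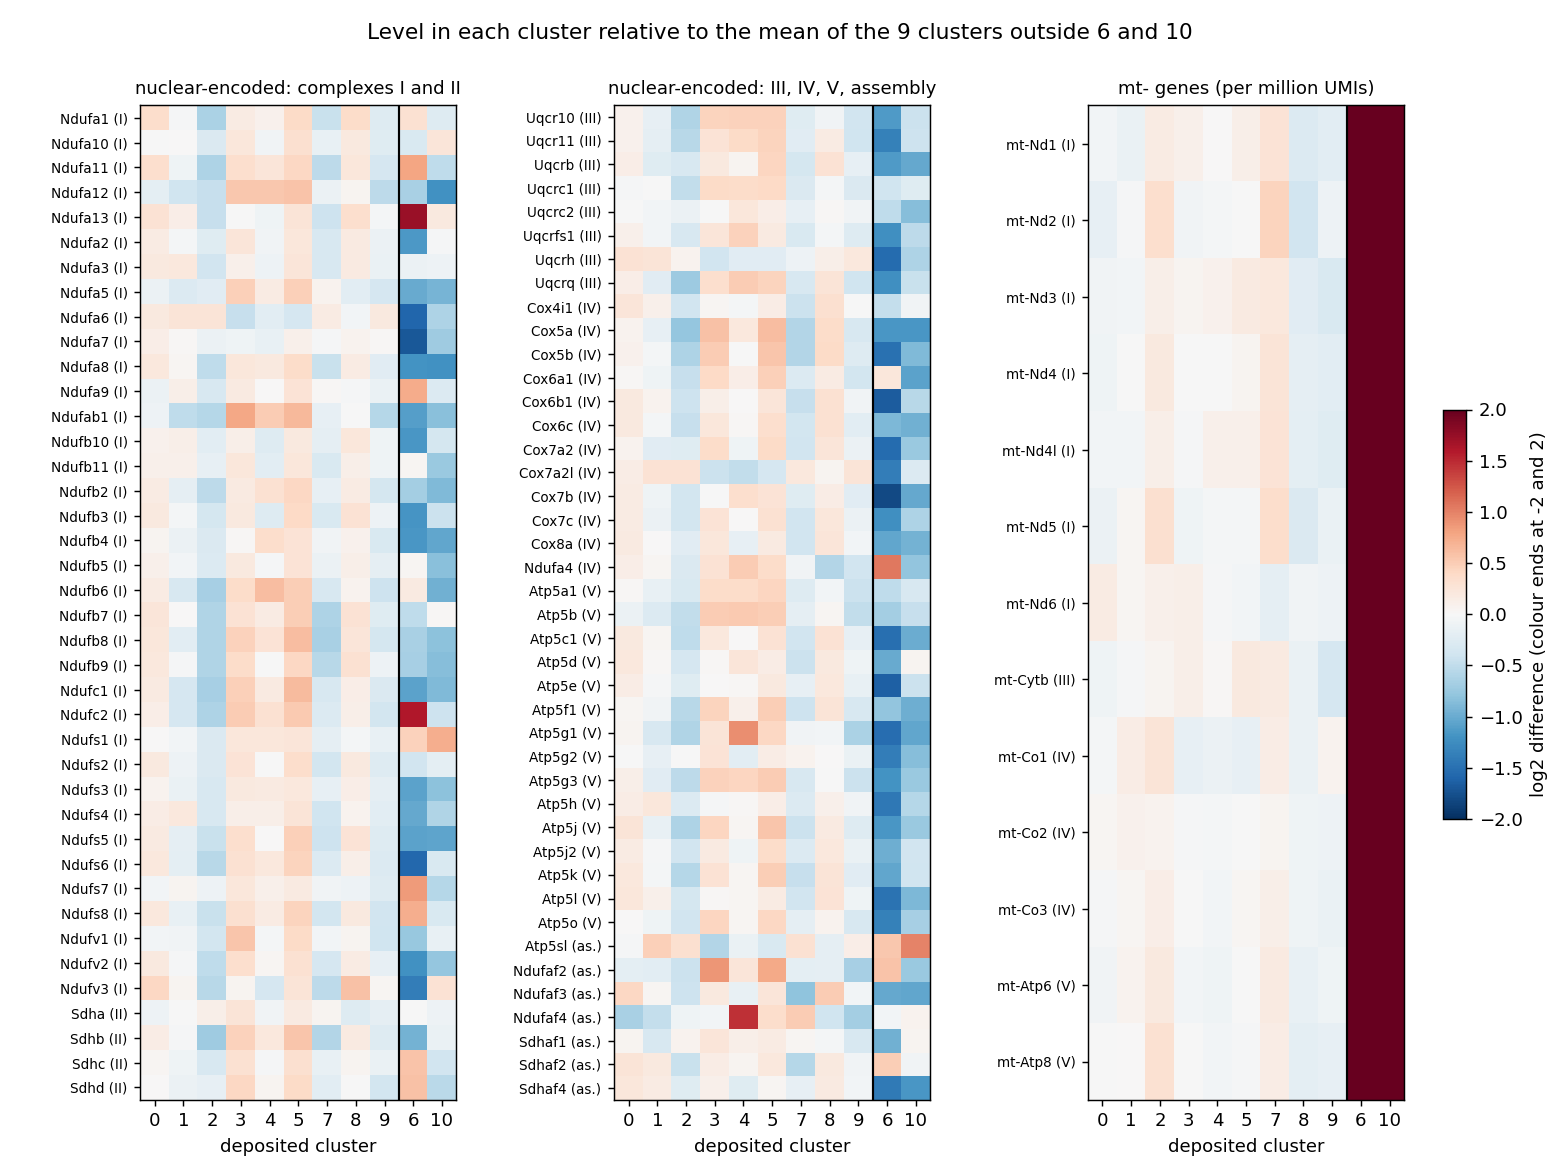
Level of each expressed gene in each deposited cluster as a log2 difference from its mean over the 9 clusters outside 6 and 10, with nuclear-encoded genes relative to UMIs outside mt- genes and mt- genes to all UMIs. The complex stands in brackets (as. for assembly factors) and colours end at -2 and 2; clusters 3 and 5 are mostly red and 2 and 7 mostly blue, Ndufaf4 and Atp5g1 stand out in cluster 4, and all mt- genes pass the end of the scale in 6 and 10.

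Tissue-restricted relatives were nearly silent. Cox4i1 made up 99.99% of the Cox4 UMIs of all cells, with 12 UMIs of Cox4i2. Cox6a2, a muscle form, had 64 UMIs, Cox7a1 341, Cox6b2, a testis form, 508, and Ndufa4l2, a hypoxia-induced relative of Ndufa4, 3. Cox7b2 had 0, which allows up to 0.0102 CPM for counting error alone.

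By a fixed measure of likeness, the genes outside the group that most resembled the nuclear-encoded sum over the 11 cluster means were Rbx1 (Pearson r = 0.994 of log2 levels), Fam96a (0.984), Med11 (0.984), Ube2l3 (0.983) and Pomp (0.981). Those most like the mt- sum were Rai1 (0.981), Htt (0.976), Mia3 (0.965), Xist (0.963) and Ttc14 (0.962). Over the 9 clusters outside 6 and 10 the latter 5 ran from -0.34 (Htt) to 0.79 (Rai1). The nuclear-encoded and mt- sums ran opposite to each other, with r = -0.82 over 11 clusters and -0.68 over 9. The 11 points share 6 libraries and were searched over 5386 genes, so these values only describe.

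Between sexes, no respiratory gene passed the test over all cells outside the natural killer-like cluster 2. With edgeR's quasi-likelihood test on library sums, 11 of 12194 genes passed at an adjusted p under 0.05 (0.0902%), and none of the 91 nuclear-encoded or 13 mt- genes tested was among them. DESeq2 called 127 genes, again none of these. At an unadjusted p under 0.05 there were 3 nuclear-encoded and 0 mt- genes, while 8.36% of all genes passed that mark. Every male library lay below every female library for 7 of 91 nuclear-encoded genes (7.69%), against 6.09% of all genes. For 4 of 91 (4.4%) every male library lay above, against 7.04% of all genes. The median log2 fold change, males minus females, was -0.05 for nuclear-encoded genes, with 59 lower, 0.11 for mt- genes, with 9 of 13 higher, and 0.0042 for all genes. Without male library 1 the mt- median was -0.01. Some marker lists of T cell states also differed between the sexes in these cells. The effector markers summed to 14217 to 14796 CPM in females and 11416 to 12801 in males. Naive or central memory markers summed to 772 to 956 in females and 1045 to 1405 in males, and progenitor exhausted markers to 380 to 438 and 467 to 782. The ranges of these 3 lists did not overlap, and their part in the respiratory values was not tested. The naive and progenitor lists share Tcf7. All other marker lists overlapped, such as proliferating markers (3635 to 4067 in females, 3058 to 3787 in males) and interferon-stimulated markers (235 to 333 and 313 to 441).

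The smallest p belonged to Sdhaf1, an assembly factor of complex II. It had 23.6, 24.8 and 25.6 CPM over all UMIs in female libraries 2, 5 and 6 and 30.9, 28.6 and 30.5 in male libraries 1, 3 and 4. The sexes did not overlap, but its log2 fold change of 0.29 ± 0.07 (SE) had an adjusted p of 0.246 by edgeR. Atp5sl (0.22, adjusted p = 0.443) and Cox7a1 (-0.58, adjusted p = 0.555) followed. Of the most abundant genes, Atp5e, the epsilon subunit of the ATP synthase, had -0.18 ± 0.11, Cox8a of complex IV -0.16 ± 0.11, Cox4i1 -0.01 ± 0.09 and Uqcrh 0.02 ± 0.10, and none of these reached an unadjusted p of 0.05.

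Within clusters, respiratory genes passed the test in clusters 1 and 9, and all that did were mt- genes higher in males. In cluster 1, edgeR called 351 of 9234 genes (3.8%, of them 1.6% higher in males), among them 2 of 13 mt- genes and 0 of 87 nuclear-encoded genes. mt-Nd2, a membrane subunit of complex I, had 1523, 1793 and 1805 CPM in female libraries 2, 5 and 6 and 2357, 2050 and 2092 in male libraries 1, 3 and 4. mt-Nd1 had 1368, 1480 and 1591 in females and 2174, 1782 and 1797 in males. Neither overlapped, with male library 1 highest in both. The log2 fold changes were 0.38 ± 0.10 (SE, adjusted p = 0.0326, edgeR) and 0.41 ± 0.10 (adjusted p = 0.0265), higher in 3 of 3 male libraries. Neither call held without male library 1 (adjusted p = 0.242 for both, edgeR), male library 3 (0.0619 for mt-Nd1 and 0.0887 for mt-Nd2), female library 2 (0.114 and 0.161) or female library 5 (0.139 and 0.113).

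In cluster 9, the interferon-stimulated-like cells, edgeR called 274 of 8030 genes (3.41%, of them 1.12% higher in males), again 2 of 13 mt- genes and 0 of 86 nuclear-encoded genes. mt-Nd2 had 1521, 1365 and 1686 CPM in females and 2670, 1849 and 1933 in males, a log2 fold change of 0.56 ± 0.13 (adjusted p = 0.0152, edgeR). mt-Nd5 had 397, 374 and 444 in females and 612, 488 and 505 in males, a log2 fold change of 0.47 ± 0.13 (adjusted p = 0.0401, edgeR). The sexes did not overlap in either gene. Without male library 1 the adjusted p was 0.228 for mt-Nd2 and 0.308 for mt-Nd5, without female library 5 it was 0.137 and 0.239, and mt-Nd5 also missed without female library 2 (0.0789), without male library 3 (0.0706) and in DESeq2 (adjusted p = 0.0516). The log2 fold change of mt-Co1 was 0.02 ± 0.09 in cluster 1 and 0.16 ± 0.11 in cluster 9, with the sexes overlapping in both. Whether the sex difference in clusters 1 and 9 differs from that of other clusters was not tested.

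**Figure D4:**
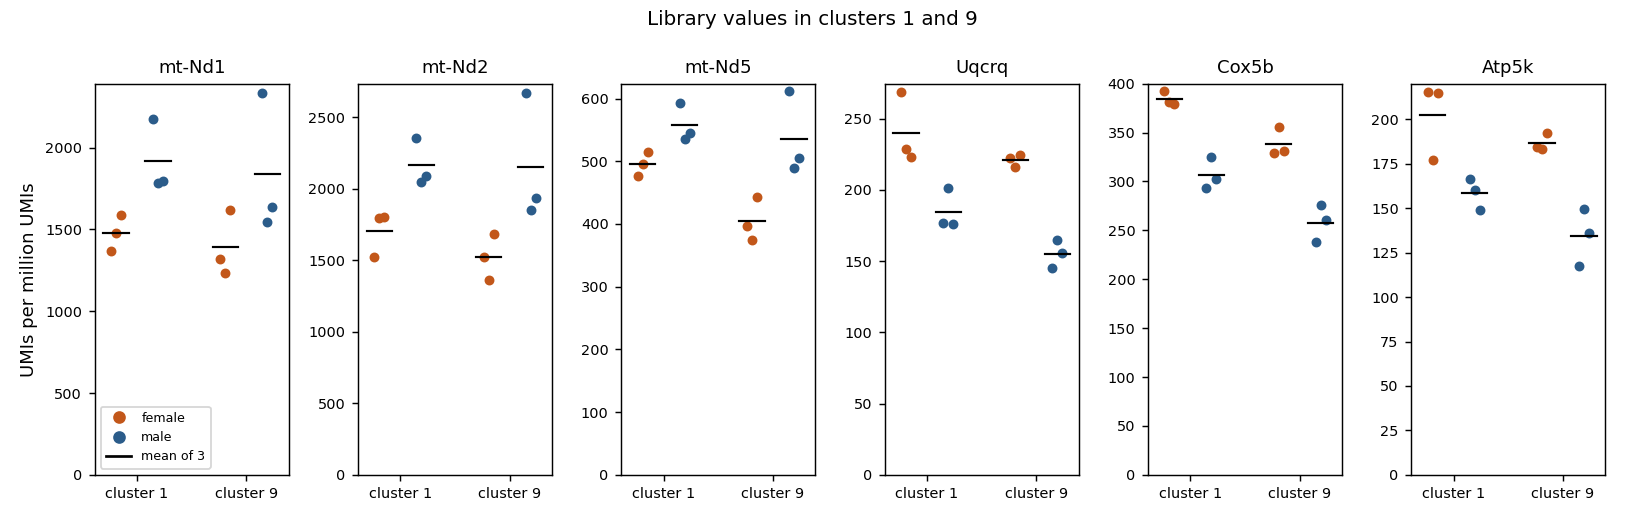
CPM of 3 mt- and 3 nuclear-encoded genes in clusters 1 and 9, with 1 point per library and a bar at the mean of 3, females and males coloured apart, and each axis starting at 0. Male points lie above female ones for mt-Nd2 and mt-Nd5 and below them for Uqcrq, Cox5b and Atp5k in both clusters, and for mt-Nd1 the sexes overlap in cluster 9.

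The nuclear-encoded genes leaned the other way in both clusters without passing. In cluster 1, 73 of 87 were lower in males, with a median log2 fold change of -0.14, while 4619 of all 9234 genes were lower, and every male library lay below every female library for 37 of 87 (42.5%), against 12.9% of all genes. In cluster 9, 60 of 86 were lower, with a median of -0.12 against 0.0057 for all genes, and 34 of 86 (39.5%) did not overlap, against 13.5% of all genes. Complex IV was the fullest: 10 of its 12 tested genes lay wholly below in each cluster, against 14 and 11 of 36 for complex I, 4 and 3 of 8 for complex III and 6 and 9 of 15 for complex V. At an unadjusted p under 0.05 by edgeR there were 22 of 87 in cluster 1 (25.3%, against 17.3% of all genes) and 14 of 86 in cluster 9 (16.3%, against 16.5%). The smallest adjusted p values were 0.0677 for Ndufb7 in cluster 1 and 0.0551 for Uqcrq in cluster 9 (edgeR). Without female library 6, edgeR called 11 nuclear-encoded genes in cluster 1 and 2 in cluster 9. All genes called then numbered 710 and 382, against 351 and 274 with every library kept. In that setting 56 nuclear-encoded genes did not overlap in cluster 1, a count that leaving a library out can only keep or raise. The matching count over all genes was not taken.

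Uqcrq, a small subunit of complex III, had 268, 229 and 223 CPM in female libraries 2, 5 and 6 of cluster 1 and 177, 201 and 176 in male libraries 1, 3 and 4. Its log2 fold change was -0.35 ± 0.11 (SE, adjusted p = 0.0784, edgeR), and in cluster 9 it was -0.45 ± 0.13. Cox5b, a zinc-binding subunit of complex IV, had 392, 382 and 380 in females and 293, 325 and 303 in males of cluster 1 (-0.30 ± 0.10, adjusted p = 0.0960, edgeR). Both genes kept the sexes apart without reaching the threshold. Every male library lay above every female library for 2 genes of cluster 1, Ndufv1 and Sdha (2.3%, against 8.48% of all genes), and for 2 of cluster 9, Cox7a2l and Atp5sl (2.33%, against 6.66%). Sdha had 75.9, 70.5 and 72.6 CPM in females and 83.6, 78.8 and 88.9 in males of cluster 1. Depth moved with sex here: the median UMIs per cell of cluster 1 were 6996, 6488 and 6746 in females and 5217.5, 6184 and 4319.5 in males, and its part in these values was not tested.

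In the other clusters 0 respiratory genes passed the test by edgeR, where the share of all genes that passed was 0.139% in cluster 0, 0.358% in 2, 0.142% in 3, 0.105% in 4, 0.0979% in 5, 0.168% in 7 and 0.0968% in 8. At an unadjusted p under 0.05, nuclear-encoded genes numbered from 0 in clusters 4 and 8 to 4 of 87 in cluster 7 (4.60%), while 3.36% to 6.88% of all genes passed that mark in these 7 clusters. The count of nuclear-encoded genes with every male library below every female library was 16 of 87 in cluster 2 (18.4%, against 9.51% of all genes) and 18 of 87 in cluster 7 (20.7%, against 8.34%), though the fitted medians there were -0.0026 and -0.02. In cluster 3, 13 of 90 lay wholly above (14.4%, against 6.19%). In clusters 6 and 10 edgeR called 11 of 6073 genes (0.181%) and 11 of 4008 (0.274%), none of them respiratory. The median of nuclear-encoded genes was 0.05 in cluster 6 and -0.07 in cluster 10, and 2 of 79 (2.53%, against 4.76% of all genes) and 2 of 76 (2.63%, against 5.41%) had an unadjusted p under 0.05. The sex difference in clusters 6 and 10 together was also set against that in the other clusters by an interaction term. By edgeR 2 of 11366 genes passed (0.0176%) and 0 respiratory genes, with 5 of 91 nuclear-encoded genes (5.49%) at an unadjusted p under 0.05, against 3.92% of all genes.

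**Figure D5:**
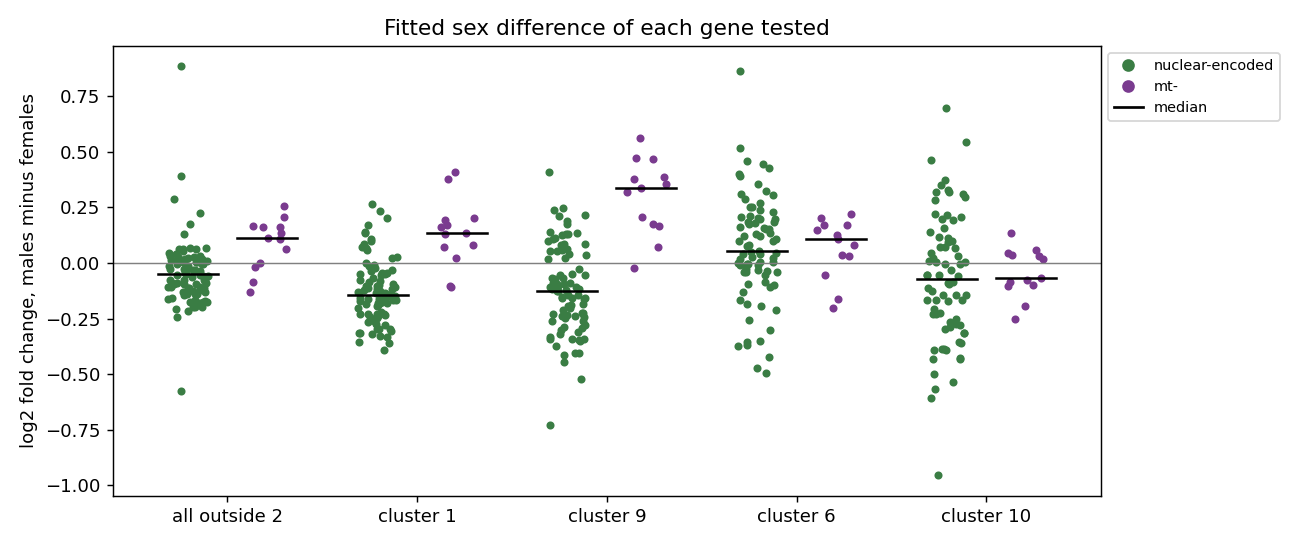
Fitted log2 fold change, males minus females, of each respiratory gene tested over all cells outside cluster 2 and within clusters 1, 9, 6 and 10, nuclear-encoded and mt- genes coloured apart, with a bar at each median. In clusters 1 and 9 the nuclear-encoded median lies at -0.14 and -0.12 and the mt- median at 0.13 and 0.34.

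Other genes of the pathway gave a background. In cluster 6, cytochrome c (Cycs) was at -1.65 and Cyc1, the complex III subunit named outside the symbol rule, at 0.51. All 8 genes of the ATP synthase inhibitor and carrier list and 67 of 71 expressed mitochondrial ribosomal protein genes (median -0.96) were lower there, but 0 of 3 expressed coenzyme Q synthesis genes. The partners Lrpprc and Slirp, which bind and stabilise mt- messengers, parted, with Lrpprc at 1.61 and Slirp at -1.75. Of the assembly factors outside the rule 11 of 17 were lower (median -0.41), of the tricarboxylic acid cycle genes 12 of 15 (-0.45), of those for mt- transcription and replication 2 of 3 (-0.13), for mt- RNA processing 6 of 8 (-0.62), of nuclear regulators 4 of 7 (-0.05) and of mitophagy genes 5 of 5 (-0.80).

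In the sex comparison outside cluster 2, none of these lists held a called gene by edgeR. Of 77 mitochondrial ribosomal protein genes 38 were higher and 39 lower in males, and 10 of 11 coenzyme Q genes were higher, with a median of 0.08. The smallest p values of the lists included Ppargc1b, a coactivator of respiratory genes, at 0.72 (adjusted p = 0.231, edgeR) and Bnip3, a mitophagy receptor induced by hypoxia, at -0.69 (adjusted p = 0.405, edgeR). In cluster 1 edgeR called Cox17, the copper chaperone of complex IV (-0.63, adjusted p = 0.00151), Ucp2, Mrpl4 (both lower), Mrpl23 and Ppargc1b (1.55, adjusted p = 0.00628, both higher). Cox17 was 1 of 32 assembly factors tested there, Ucp2 1 of 8 inhibitor and carrier genes and Ppargc1b 1 of 10 nuclear regulators. Mrpl4 and Mrpl23 were among 76 ribosomal protein genes tested, and 3.8% of all genes passed. Ppargc1b was low, with a mean outside cluster 2 of 3.78 CPM in females and 6.12 in males. In cluster 9 edgeR called Cox17 (-0.81, adjusted p = 0.00148), Mrps16 and Bnip3 (-1.22, adjusted p = 0.0357), all lower in males. They were 1 of 32 assembly factors, 1 of 74 ribosomal protein genes and 1 of 6 mitophagy genes tested, while 3.41% of all genes passed. In cluster 10, where 0.274% of all genes passed, edgeR called Uqcc2, an assembly factor of complex III (-1.40 ± 0.32, SE, adjusted p = 0.0340). Depth limits cluster 10, and neither the UMIs behind this call nor the number of assembly factors tested there is given here. How the calls of these lists fare without male library 1 is not given here.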

How the data were processed

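RNA of single cells was read with a 3' droplet kit of chemistry version 3, per the labels' protocols. Cell Ranger, Seurat and build mm10 were used, per the submitters' processing notes, which give no versions. The deposited table holds whole-number counts of UMIs per gene and cell, as deposited by the authors and not normalized, and cluster numbers and sex come from a cell table deposited with it. How cells were filtered or doublets treated is not given in the sources used here; the cells held have 501 to 8265 genes. For each library, UMIs were added up within every cluster (93 cells at the least) and over the cells of all clusters but 2, and sexes were compared with edgeR 4.0.16 (TMM factors, filterByExpr, robust quasi-likelihood test, Benjamini-Hochberg adjustment over all genes tested, threshold 0.05) in R 4.3.3. Adjusted p values in the text are edgeR's unless DESeq2 1.42.0 or limma 3.58.1 is named. Cluster ratios add 0.5 UMI to each sum. The script was tested on simulated counts.

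Genes named were taken from the 13 mt- genes, the 3 most abundant and the 2 of smallest p in each complex, genes called in any sex comparison, paralog sets, the 4 highest and 4 lowest in clusters 6 and 10, the most and least variable, the 5 most alike, and up to 3 genes of each other list. Ndufa6, Ndufa9, Ndufa11, Ndufs8, Sdhc, Lrpprc and Slirp fall outside this rule and were chosen after their values were seen. Cox17, Mrpl4, Mrpl23 and Mrps16, of the other lists, were named because they passed the sex test within a cluster. The symbol rule and all gene lists were chosen with earlier results of these data known. Intervals and floors cover counting error only, and p values cover the spread between libraries only.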

Additional observations from a re-analysis of the deposited data

Results flagged for a closer look

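Uqcrc1, a core subunit of complex III, had library ratios in cluster 10 that did not overlap between the sexes: near its level elsewhere in females and lower in males. Its log2 ratio against the 9 clusters outside 6 and 10 was 0.05, 0.10 and 0.12 in female libraries 2, 5 and 6 and -0.96, -1.02 and -0.77 in male libraries 1, 3 and 4, a male minus female difference of -1.01. This difference of ratios was not tested, and it rests on 88 UMIs of Uqcrc1 in cluster 10. The gene was found by a scan of the 82 expressed nuclear-encoded genes in clusters 6 and 10 for sexes on opposite sides of 0. It was the only hit. The same scan was not run over all expressed genes, so how often other genes would be hit is not known. The ratios shown are the values that selected the gene. In cluster 6 the sexes overlapped, at 53.8, 56.0 and 48.0 CPM in females and 53.7, 64.0 and 51.4 in males. The interaction term for clusters 6 and 10 together was -0.32 (unadjusted p = 0.149, edgeR). The direct comparison of sexes within cluster 10 gave a log2 fold change of -0.96 ± 0.34 (SE, adjusted p = 0.614, edgeR's quasi-likelihood test).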

How the results depend on the processing

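In the sex comparison outside cluster 2, no respiratory gene was called under any of the alternatives run, whereas DESeq2 called 127 genes in all against 11, and 9 to 16 were called when 1 library was left out. The median of the mt- genes was -0.00703 without male library 1 and 0.189 at most. Leaving out 1 library moved the sums over clusters of called genes to 0 to 13 for nuclear-encoded genes (13 without female library 6) and to 0 to 5 for mt- genes, against 0 and 4. The interaction called 2 to 6 genes, none respiratory. In cluster 1, all genes called ranged from 64 without female library 5 to 710 without female library 6, and in cluster 9 from 70 without female library 5 to 382 without female library 6. Nuclear-encoded genes with every male library below every female library numbered 37 to 56 and 34 to 46. Leaving a library out can only keep or raise this count at the same set of tested genes. With every library kept, 12.9% and 13.5% of all genes lay so. The matching counts over all genes in the other settings were not taken, so these ranges say nothing particular to respiratory genes. With per-cell medians the nuclear-encoded share of the 9 clusters outside 6 and 10 was 1.91% in place of 2.05%, and over all UMIs the median log2 ratio was -1.61 in cluster 6 and -1.01 in cluster 10. The causes were not tested. No paired analysis was possible because the libraries in the table carry no replicate number of the labels, so the fit with such a block was not run. Depth limits clusters 6 and 10, where a library summed to as few as 199900 UMIs in cluster 10 and where 79 and 76 of 94 nuclear-encoded genes could be tested.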
